A study of Arabidopsis thaliana with 3 samples.

Results

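The genes described here are 7 Arabidopsis thaliana genes that carry calcium signals into the nitrate response: the kinase genes CIPK8 (AT4G24400) and CIPK23 (AT1G30270), the calcium sensor genes CBL1 (AT4G17615) and CBL9 (AT5G47100), and the calcium-dependent kinase genes CPK10 (AT1G18890), CPK30 (AT1G74740) and CPK32 (AT3G57530). They were chosen by name, with earlier results of these data known. Every entry of both GRF5 peak lists annotated to one of them was taken, and they are 7 of 27444 nuclear protein-coding genes. The gene table used for names lists AT1G18890 as CDPK1, with CPK10 as a synonym. The CBL genes encode sensor proteins without kinase activity of their own, so the group holds 5 kinase genes and 2 sensor genes.

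CBL proteins bind calcium, dock onto a CIPK kinase and bring it to a membrane, where the kinase phosphorylates transporters and channels. In roots, CIPK23 together with CBL1 or CBL9 phosphorylates the nitrate transporter and sensor NRT1.1 when nitrate is scarce, which shifts it to high-affinity uptake, and CIPK8 acts in the early response to high nitrate. CPK kinases have the calcium-binding part and the kinase in a single protein, and CPK10, CPK30 and CPK32 phosphorylate the transcription factor NLP7 after nitrate supply, which keeps NLP7 in the nucleus. GRF5 belongs to the growth-regulating factors, a family of plant transcription factors, and is known for promoting cell proliferation in growing organs.

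Binding was measured by DAP-seq (DNA affinity purification with sequencing), where genomic fragments are recovered with a purified transcription factor in a tube. The DNA came from roots of wild-type Col-0 plants, grown to an age of 7 days and then kept for 3 days on 0.2 mM nitrate, and was cut to between 200 and 500 bp. The group comprised 2 libraries, replicates 1 and 2, recovered with His-tagged GRF5 made in Escherichia coli and an antibody against GRF5, and the authors called peaks in each of them against a common input, 1 library whose treatment label reads control although its protocol gives the same plants. By the sample titles and protocols this was DAP-seq, and they are followed here, although the series' design text uses the same library names for a chromatin immunoprecipitation. Naked DNA was used, so a peak describes recovery of DNA in a tube, and neither binding in root cells nor expression of the genes. No pull-down without GRF5 was used as a control, so it was not tested whether GRF5 itself recovered the DNA.

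The lists held 28349 nuclear peaks in replicate 1 and 27054 in replicate 2. The pileup, the number of fragments stacked at a peak's summit, had a median of 85 and 81, and total read counts were not used here. Fold enrichment, the authors' ratio of that pileup to the background expected from the input, had a median of 1.82 and 1.84. Peaks of the lists were called shared when the overlap covered 50% or more of the shorter peak, which gave 19008 pairs. The titles call the libraries biological replicates, but the labels mention no separate preparations of protein or DNA, so the spread between the replicates may be technical.

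All 7 genes had a peak in replicate 1, and 4 of them, CIPK8, CIPK23, CBL1 and CPK10, also had one in replicate 2. Among all nuclear protein-coding genes, 70.0% had a peak in replicate 1 and 68.2% in replicate 2. CBL9, CPK30 and CPK32 were in replicate 1 alone, as were 10.5% of all genes. None of the 7 was in replicate 2 alone (8.73% of all genes) or in neither list (21.2%). Of all genes with a peak in replicate 1, 84.9% also had one in replicate 2. At CIPK8, CIPK23, CBL1 and CPK10 a peak of some region was shared, which is 4 of 7 genes (57.1%) beside 54.4% of all genes, so this count was near the background. Promoter peaks were annotated to CBL9, CPK10 and CPK32 in replicate 1 (3 of 7, beside 50.3% of all genes) and to CPK10 in replicate 2 (1 of 7, beside 48.1%). A shared promoter peak was present at CPK10 alone, 1 of 7 (14.3%) beside 35.2% of all genes. Gene-body peaks, over coding exons or introns, were present at 5 of 7 genes in replicate 1, all but CBL9 and CPK32, and at 4 of 7 in replicate 2, beside 45.1% and 43.2%. A shared gene-body peak was present at CIPK8, CIPK23 and CBL1, 3 of 7 (42.9%) beside 32.2% of all genes. These 3 genes had no shared promoter peak, a combination found in 19.1% of all genes. With 7 genes chosen by name, earlier results known and a single pair of libraries, these counts are descriptions and were not tested.

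Together, 18 peaks were annotated to these genes, 10 in replicate 1 and 8 in replicate 2. Of them, 10 formed 5 shared pairs and 8 had no partner. In replicate 1, 5 of the 10 peaks had a partner, beside 67.0% of all nuclear peaks, and in replicate 2, 5 of the 8 (62.5%), beside 70.3%. Their positions show that CIPK23 was the gene whose sites matched best between the libraries, while the peaks of CIPK8 and CPK10 were partly displaced.

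**Figure D1:**
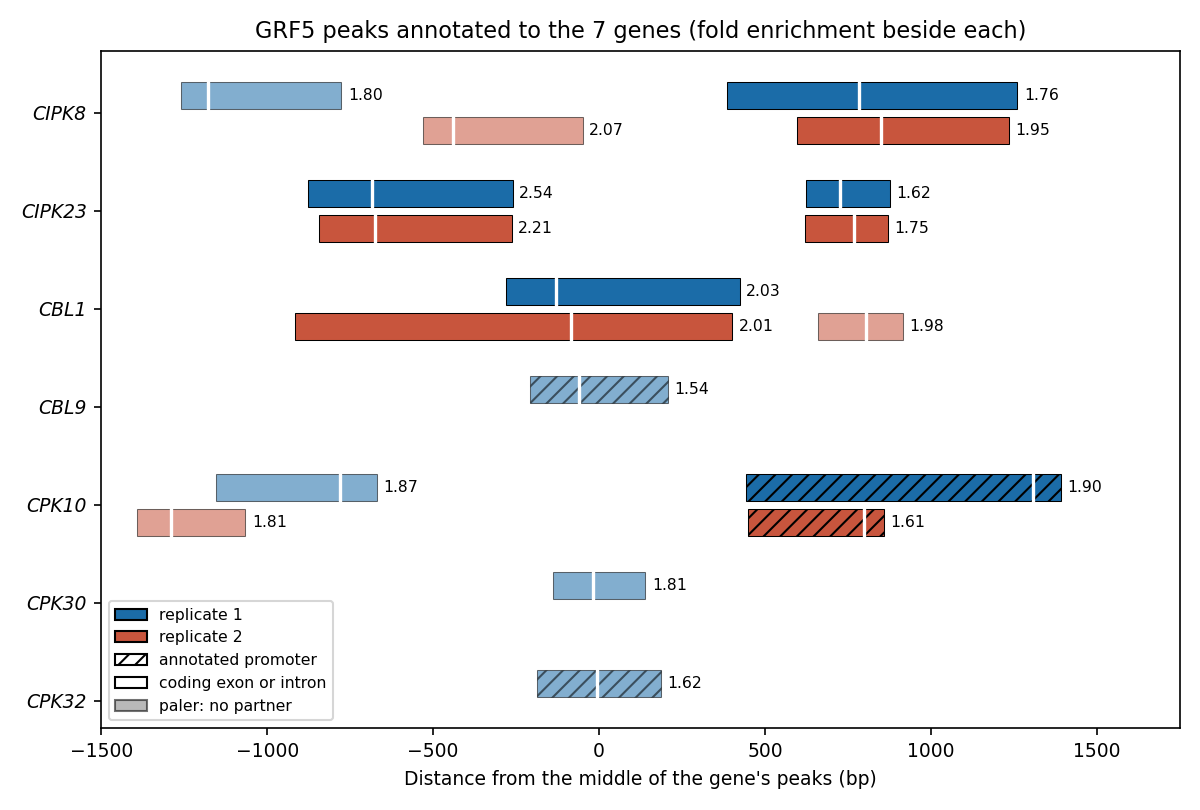
Each row is a gene and each bar a peak, with replicate 1 above replicate 2, hatching for peaks annotated to the promoter, a white line at the summit and the fold enrichment beside the bar. The horizontal axis is the distance in bp from the middle of all peaks of that gene. Paler bars have no partner in the other list: both CIPK23 sites are shared, whereas CBL9, CPK30 and CPK32 have a bar in replicate 1 alone.

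CIPK23 encodes the kinase that targets NRT1.1 and the potassium channel AKT1, and it carried the strongest site of the group. On chromosome 1, from 10655663 to 10656279 (TAIR10, 1-based), replicate 1 had a 617 bp peak over 2 coding exons and 3 introns with a pileup of 112 fragments, a fold enrichment of 2.54 and a −log10 q of 15.1. In replicate 2 the peak ran from 10655695 to 10656276, over the same number of exons and introns, with 91 fragments, 2.21-fold enrichment and a −log10 q of 8.99. The replicate 2 peak lay wholly inside that of replicate 1, and the summits were 9 bp apart, closer than the median of 52 bp over all shared pairs. The mean was 2.37 ± 0.238 (SD, n = 2), above those of 92.2% of the shared pairs. Within the single lists the peak stood above 96.4% of the peaks of replicate 1 and 86.6% of those of replicate 2.

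A second CIPK23 site lay further along the gene, from 10657163 to 10657415 in replicate 1 and from 10657161 to 10657410 in replicate 2, each over 2 coding exons and 2 introns. It had 73 fragments and 1.62-fold enrichment in replicate 1, and 76 fragments and 1.75-fold in replicate 2. Here the bounds differed by a few bases and the summits by 41 bp, but the strength was low, with a mean of 1.68 ± 0.0875 (SD, n = 2) that exceeded 16.3% of the shared pairs. CIPK23 was therefore the only one of the 7 genes with 2 shared peaks, as were 16.9% of all nuclear protein-coding genes, and neither list annotated a peak to its promoter.

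CIPK8, a kinase gene of the early nitrate response, had 2 peaks in each list, all over coding exons and introns, and 1 shared site. The shared site ran from 12619269 to 12620144 on chromosome 4 in replicate 1, over 4 coding exons and 5 introns, with 77 fragments and 1.76-fold enrichment. In replicate 2 it was shorter, 639 bp from 12619481 to 12620119, with 80 fragments and 1.95-fold. The replicate 2 peak lay wholly within the other, the summits were 65 bp apart, and the mean of 1.85 ± 0.133 (SD, n = 2) exceeded 44.5% of the shared pairs. This is an enrichment of ordinary size for these lists.

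The other CIPK8 peaks did not meet. Replicate 1 had one from 12617624 to 12618107 with 81 fragments, 1.80-fold enrichment and a −log10 q of 4.78, which was also annotated to the promoter of the neighbour AFB4 (AT4G24390), an auxin receptor gene. Replicate 2 had one from 12618354 to 12618835 with 87 fragments, 2.07-fold and a −log10 q of 7.37, annotated to CIPK8 only. A gap of 246 bp separated them, and their summits were 737 bp apart. The replicate 2 peak was the strongest CIPK8 peak of either list, above 76.8% of the peaks of replicate 2, and 80.9% of the peaks ranked within 10 percentiles of it had a partner.

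CBL1, a plasma membrane sensor of CIPK23, had 1 shared site. In replicate 1 the peak spanned 9817264 to 9817969 on chromosome 4, over 1 coding exon and 1 intron, with 96 fragments, 2.03-fold enrichment and a −log10 q of 7.79. In replicate 2 it spanned 9816630 to 9817947, over 2 coding exons and 2 introns, with 90 fragments, 2.01-fold and a −log10 q of 7.12. The peak was 706 bp long in replicate 1 and 1318 bp in replicate 2, longer than 98.3% of the peaks of that list, yet the summits were only 43 bp apart. Its mean of 2.02 ± 0.0113 (SD, n = 2) was the closest match in strength among the 5 pairs and exceeded 69.3% of all shared pairs.

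Replicate 2 had a further CBL1 peak from 9818205 to 9818461, over 2 coding exons and 2 introns, with 93 fragments and 1.98-fold enrichment. The nearest peak of replicate 1 was 235 bp away, and 77.7% of the peaks of similar rank in replicate 2 had a partner. Both CBL1 sites were also annotated to the promoter of the neighbour AT4G17616, the shared one in addition to the promoter of a tRNA gene, AT4G17612, and in replicate 2 to that of AT4G17610. CBL1 itself had no promoter peak in either list.

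CBL9 encodes the closest relative of CBL1 and works with CIPK23 in the same way, but its pattern of peaks was different. Its 1 peak, from 19132814 to 19133229 on chromosome 5 in replicate 1, was annotated to the promoter alone, with 70 fragments, 1.54-fold enrichment and a −log10 q of 2.48. It exceeded 9.80% of the peaks of that list, and 45.7% of the peaks of similar rank had a partner. The nearest peak of replicate 2 was 4702 bp away. CBL1 thus had gene-body peaks in both lists, and CBL9 a weak promoter peak in one.

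Among the kinases that act on NLP7, CPK10 was the only one with peaks in both lists. Its promoter peak on chromosome 1 ran from 6526085 to 6527034 in replicate 1, with 89 fragments, 1.90-fold enrichment and a −log10 q of 6.15. In replicate 2 it ran from 6526093 to 6526501, with 69 fragments, 1.61-fold and a −log10 q of 2.83. The 409 bp peak of replicate 2 lay inside the 950 bp peak of replicate 1, but the summits were 509 bp apart, further than in 94.8% of the shared pairs. The mean of 1.76 ± 0.211 (SD, n = 2) exceeded those of 24.8% of the genes with a shared promoter peak. In replicate 1 the peak also reached the promoter of the neighbour AT1G18900. Since the replicate 1 summit lay outside the peak of replicate 2, the promoter counted as shared through overlap and not through a common summit: requiring summits within 100 bp left 0 of the 7 genes with a shared promoter peak, beside 24.3% of all genes under that rule.

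CPK10 also had a peak over coding exons and introns in each list. That of replicate 1 spanned 6524489 to 6524974 with 80 fragments and 1.87-fold enrichment, and that of replicate 2 spanned 6524252 to 6524577 with 83 fragments and 1.81-fold. They overlapped by 89 bp, 27.3% of the shorter, and were not counted as shared, with summits 509 bp apart. Both were also annotated to the promoter of AT1G05453, a long non-coding RNA gene. With an overlap of 1 bp as the criterion they became a shared pair with a mean of 1.84.

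CPK30 and CPK32 had 1 peak each, in replicate 1 alone. The CPK30 peak, from 28079973 to 28080253 on chromosome 1, lay over 1 coding exon and over the promoter of the long non-coding RNA gene AT1G09513, with 92 fragments, 1.81-fold enrichment and a −log10 q of 5.50. Its pileup was above that of 69.6% of the peaks of replicate 1 but its fold enrichment above only 48.5%, with the highest background estimate of the 10 peaks, 50.4 fragments. The CPK32 peak, from 21300782 to 21301155 on chromosome 3, was annotated to the promoter, with 75 fragments, 1.62-fold and a −log10 q of 3.20. No peak of replicate 2 lay within 2404 bp of the CPK30 peak or within 7760 bp of the CPK32 peak. Of the peaks of similar rank in replicate 1, 66.4% and 53.3% had a partner.

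Set side by side, the peaks of these genes were of middle strength. Fold enrichment ranged from 1.54 at CBL9 to 2.54 at CIPK23 in replicate 1 (median 1.81) and from 1.61 at the CPK10 promoter to 2.21 at CIPK23 in replicate 2 (median 1.96). In replicate 1, 4 of the 10 peaks were above the list's median, and in replicate 2, 5 of the 8 were. A fold enrichment of at least 2 was reached by 2 peaks of replicate 1, at CIPK23 and CBL1, and by 3 of replicate 2, at CIPK8, CIPK23 and CBL1, while 27.4% and 29.7% of all peaks reached it. None of the 18 peaks reached 3-fold. The promoter peaks of CBL9, CPK32 and, in replicate 2, CPK10 were the weakest of their lists among these genes, together with the second CIPK23 site.

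**Figure D2:**
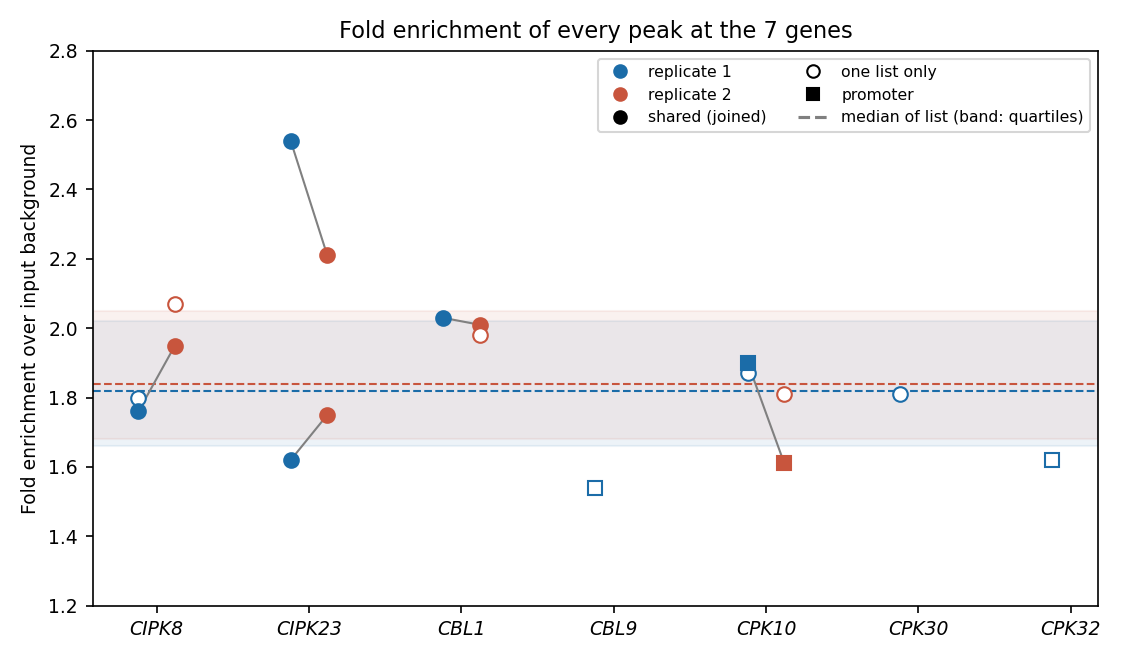
The vertical axis is the fold enrichment over the input background and each point is 1 peak, circles for gene bodies and squares for promoters. Filled points joined by a line are shared pairs, open points have no partner, dashed lines are the medians of the lists (1.82 and 1.84) and the bands their quartiles. The CIPK23 pair at 2.54 and 2.21 lies above both bands, and the open squares of CBL9 and CPK32 lie below them.

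The 5 shared pairs did not move in a common direction between the libraries. The log2 ratio of replicate 2 to replicate 1 was 0.15 at CIPK8, 0.11 at the second CIPK23 site, -0.01 at CBL1, -0.21 at the main CIPK23 site and -0.25 at the CPK10 promoter. The SD of this ratio over all 19008 shared pairs was 0.19, so CIPK23 and CPK10 differed between the libraries by slightly more than 1 SD. The strengths of CIPK8, CBL1 and CPK10, with means from 1.76 to 2.02, differ by about as much as 2 libraries do at a single site, and their order is not firm. In the background estimate, recalculated from pileup and fold enrichment, the peaks of these genes ran from 42.3 to 50.4 fragments in replicate 1 (list median 46.1) and from 40.6 to 46.6 in replicate 2 (list median 43.1). Pileups ran from 70 to 112 and from 69 to 93 fragments, a wider range than that of the background in both lists.

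In the authors' functional annotation, no term was given for all 7 genes. The genes were chosen as members of known signalling families, so the terms below largely restate that choice. The 5 kinase genes carry the terms for protein serine/threonine kinase activity and ATP binding, and CBL1, CBL9, CPK10, CPK30 and CPK32 carry calcium ion binding, which the CIPK genes lack. Plasma membrane is given for 6 of 7, all but CIPK8. Response to nitrate is given for CIPK8 only, and potassium ion transport for CIPK23 only. The genes are also longer than most, from 2665 bp for CBL9 to 4125 bp for CIPK23 in the gene table, where the median nuclear protein-coding gene has 2078 bp. Among the 6049 genes within that range of lengths, 64.9% had a peak of some region shared, 36.3% a promoter peak and 46.7% a gene-body peak. Beside those shares, the 3 genes with a shared gene-body peak were 42.9% and thus near the background. The number of peaks did not follow length throughout: CIPK8, CIPK23 and CPK10 had 2 peaks in each list and CBL9 and CPK30, the shortest genes, 1 in replicate 1 only, but CPK32, with 3248 bp, also had only 1, while the shorter CBL1, with 3091 bp, had 1 and 2.

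The wider families were counted in the same way, taking all genes named CIPK, CBL or CPK with a number. Of 26 CIPK genes, 18 (69.2%) had one or more shared peaks in some region, 12 (46.2%) in the promoter and 11 (42.3%) in the gene body. Of 34 CPK genes, 25 (73.5%) had one in some region, 15 (44.1%) in the promoter and 19 (55.9%) in the gene body. Of 10 CBL genes, 4 (40.0%) had one in some region, 1, CBL6, in the promoter and 3 (30.0%) in the gene body. All genes stood at 54.4%, 35.2% and 32.2%. The genes within the length range given above stood at 64.9%, 36.3% and 46.7%. Lengths of the other family genes were not compared, so the part of gene length in the family shares was not tested. The families were not tested against other genes or against each other. All 10 CBL genes and all 34 CPK genes had a peak in at least 1 list. Of the 26 CIPK genes, 4 had none, beside 21.2% of all genes. In replicate 1 alone were 4 of the 10 CBL genes, CBL4, CBL5, CBL9 and CBL10. The same held for 4 CIPK genes (15.4%) and 5 CPK genes (14.7%), beside 10.5% of all genes.

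**Figure D3:**
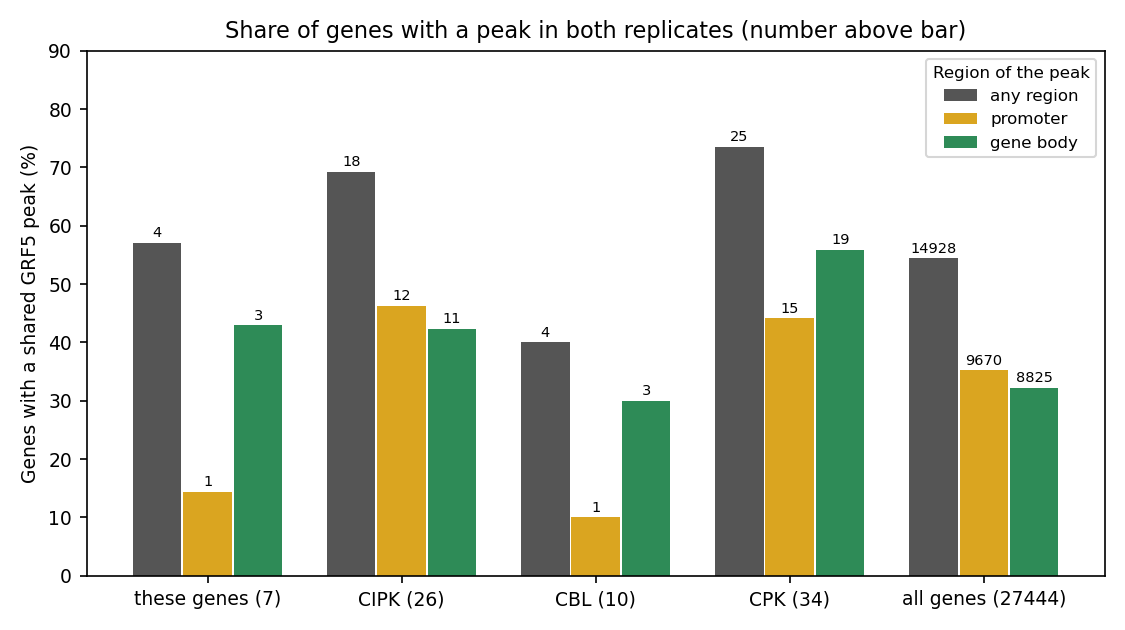
Bars give the percentage of genes with a GRF5 peak shared by both replicates, with the number of genes above each bar, for the 7 genes, the 3 families (which include them) and all 27444 nuclear protein-coding genes. Grey is any region, gold the promoter and green the gene body. The CBL promoter bar stands for 1 gene of 10 and that of the 7 genes for CPK10 alone.

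Within the CIPK family, CIPK23 had the highest mean of the 18 genes with a shared peak and CIPK8 ranked twelfth. The next were CIPK25 with 2.32- and 2.33-fold enrichment, CIPK1 with 2.07- and 2.50-fold and CIPK13 with 2.05- and 2.42-fold, all promoter peaks. The difference between CIPK23 and these genes was less than the SD of 0.238 between the libraries at the CIPK23 site. CIPK23 reached its value in the gene body, whereas those of CIPK25, CIPK1 and CIPK13 lay in promoters. Shared gene-body peaks of the other CIPK genes reached means of up to 2.23, so this was not particular to CIPK23. The CIPK25 peak was also annotated, in replicate 1, to the promoter of its neighbour CYP71B11 and to an exon of AT5G03915. That of CIPK13 was also annotated to the promoter of AT2G34185 in that replicate. Among the sensor genes, CBL1 had the highest of 4 means, before CBL3 with an intron peak of 1.90- and 1.87-fold, CBL8 with 1.70- and 1.79-fold and CBL6 with 1.64- and 1.79-fold. The CBL8 and CBL6 peaks were also annotated to promoters of other genes in replicate 1.

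In the CPK family, CPK10 exceeded only 3 of the 25 genes with a shared peak, with 1.76 beside a family median of 1.88. That difference was less than the SD of 0.211 between the libraries at the CPK10 site, so this rank is not firm. CPK30 and CPK32 had no shared peak and could not be ranked. CPK31 led with a promoter peak of 2.50- and 2.41-fold enrichment on chromosome 4, from 2384288 to 2384763. CPK20 had 2.30- and 2.42-fold over coding exons and introns, and CPK15 2.21- and 2.04-fold. In replicate 1 these peaks were also annotated to the promoters of AT2G38905 and AT4G21950. Promoter peaks of CPK7 and CPK4, the next after CPK31, had 1.87- and 2.23-fold and 2.04- and 1.92-fold. The CPK7 peak was annotated to an intron of CPK7 as well and, in replicate 1, to an intron of NF-YA1. In that replicate the CPK4 peak was also annotated to an exon of AT4G09565.

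**Figure D4:**
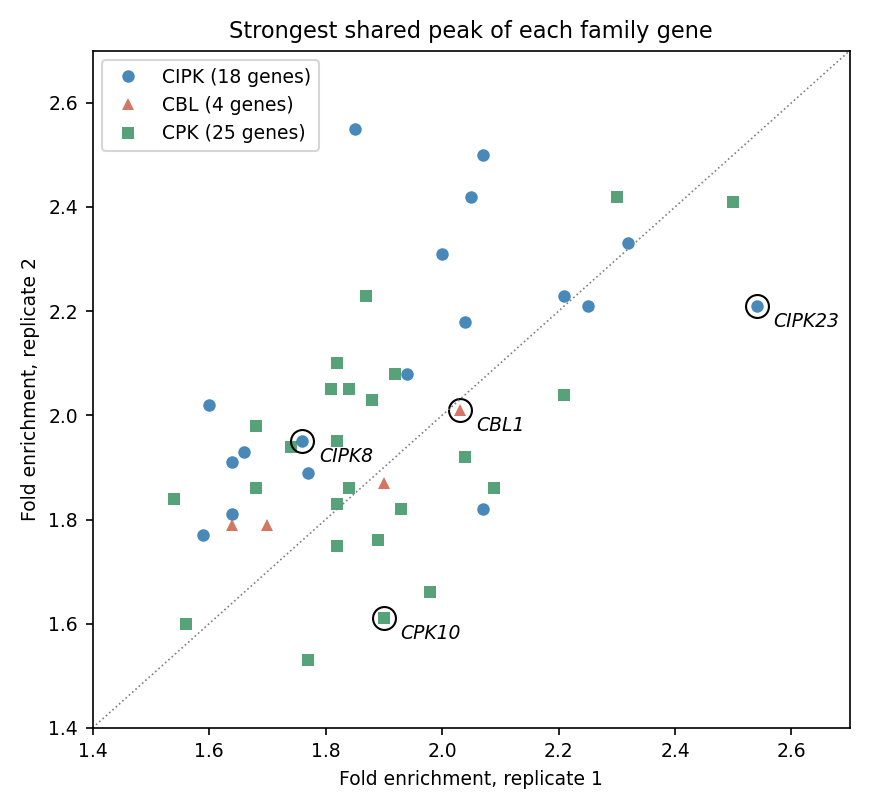
Each point is a CIPK, CBL or CPK gene with a shared peak, placed by the fold enrichment of its strongest shared peak in replicate 1 (horizontal axis) and replicate 2 (vertical axis). Circles are CIPK, triangles CBL and squares CPK genes, the dotted line marks equal values and rings mark CIPK8, CIPK23, CBL1 and CPK10. CIPK23 lies furthest to the right at 2.54, and CPK10 lies below the line at 1.90 and 1.61.

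A list of 12 genes with known places in the same pathway was also followed. It was chosen with earlier results of these data known, so its shares are descriptions and were not tested. A peak was shared in some region at 8 of 12 (66.7%) and a shared promoter peak at 7 (58.3%), beside 54.4% and 35.2% of all genes. Most of these promoter peaks were weak: the median of their means was 1.73, beside 1.90 for all genes with a shared promoter peak. NRT1.1, the transporter phosphorylated by CIPK23, had a shared promoter peak and a shared intron peak, with means of 2.12 and 2.16. NLP7, the substrate of CPK10, CPK30 and CPK32, had a promoter peak of 1.62- and 1.85-fold enrichment and an intron peak of 1.77-fold in both lists, and its relative NLP6 a promoter peak of 1.55- and 1.85-fold. The NLP6 summits were 606 bp apart, and in replicate 1 the peak was also annotated to coding sequence of RPN12a and to the promoter of AT1G64510. ABI2, a phosphatase gene whose product acts on the CIPK23 and CBL1 complex, had a promoter peak of 1.98- and 2.16-fold, which in replicate 1 was also annotated to the promoter of AT5G57040.

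SLAH3 (AT5G24030) is an anion channel gene whose product is activated by CBL and CIPK pairs and by CPK kinases. It held the strongest shared site among the 12 listed genes. This site had 212 fragments and 4.76-fold enrichment in replicate 1 and 195 fragments and 4.67-fold in replicate 2. It lay over coding sequence on chromosome 5 from 8117730 to 8118769, and the summits were 6 bp apart. Its mean of 4.71 exceeded 99.6% of the genes with a shared peak and was higher than every peak of the 7 genes. HAK5, a high-affinity potassium transporter gene whose product CIPK23 phosphorylates, had a peak over coding sequence with 99 fragments and 2.34-fold in replicate 1 and 126 fragments and 3.17-fold in replicate 2, which was also annotated to the promoter of a neighbour, and a promoter peak of 1.74- and 2.05-fold. The ammonium transporter gene AMT1;2 had 1.76- and 1.48-fold and NRT2.1 1.70- and 1.39-fold, both in the promoter. AKT1 had a peak in replicate 1 only, SLAC1 and AMT1;1 in replicate 2 only, and the iron transporter gene IRT1 in neither list.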

How the data were processed

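Peak lists of 2 DAP-seq libraries with GRF5 were analysed; values of the input itself were not used here. Per the submitters' processing notes, the authors used MACS2 2.2.7.1, Trimmomatic 0.39 and Bowtie2 2.4.6 with TAIR10. Caller settings, read filters and promoter length were not given in the sources used here. Each deposited pileup signal is a whole number of fragments at the summit, the deposited fold enrichment is its ratio to the input-based background, and the deposited −log10 p and −log10 q belong to the summit, per the file headers. Depth is known only through pileups.

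Entries were collapsed to peaks by chromosome, start and end, 1 was added to starts, and organelle peaks were left out. Each peak was paired with at most 1 peak of the other list, the largest overlap first; a region counted as shared when both peaks carried it for the same gene. The background estimate is (pileup + 1) / fold enrichment − 1, assuming the caller's usual pseudocount. Percentiles give the share of peaks, pairs or genes with a lower value. Symbols, gene types and lengths came from RefSeq (TAIR10.1); 27953 of 27978 identifiers matched. Python 3.11.15, numpy 2.4.6, pandas 2.3.3 and matplotlib 3.10.9 were used, and peak matching was tested on simulated lists.

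The genes and lists were chosen with earlier results of these data known. The 7 genes and 12 partners could always be named, as could neighbours under a peak and the 3 highest further genes per family for promoters and for any region; other CBL genes were named after their values were seen. The GRF core motif and protein identity, which had been planned, were not analysed here.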

Additional observations from a re-analysis of the deposited data

How the results depend on the processing

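Under 7 alternatives and, for strengths, the lower of the 2 fold enrichments, 110 values were compared. Of them, 76 stayed within 1.5 times of the reported count or within 1 SD of the reported strength, and 34 moved further. Among the 26 strengths, 25 stayed. The mean ± SD of 2 values always spans both, so at an unchanged site this was fixed in advance. Strengths of shared peaks lost under a rule were not counted, as for CIPK8 and CPK10 with −log10 q of at least 5. With peaks of −log10 q of at least 5, CIPK23 and CBL1 were left (2 of 7 genes in any region, 0 with a promoter peak), beside 28.2% and 16.8% of all genes; the families then had 25 and 11 of 70 genes, CIPK 10 and 6, CBL 2 and 0, CPK 13 and 5. With a fold enrichment of at least 2, the counts were again 2 and 0 of 7, beside 14.4% and 8.45% of all genes, and in the families 11 and 6, in CIPK 7 and 5, in CBL 1 and 0, in CPK 3 and 1. With summits within 100 bp, or an overlap of at least 50% of each peak, 0 of the 7 genes had a shared promoter peak, beside 24.3% and 30.3% of all genes; the summit rule left 18 family promoters, 8 of them CPK. Without 1 replicate, counts in any region were from 4 to 7 for the 7 genes, from 53 to 62 for the families, from 18 to 22 for CIPK, from 6 to 9 for CBL and from 29 to 31 for CPK. Promoter counts were then from 1 to 3 for the 7 genes, 3 for CBL, from 34 to 40 for the families, from 13 to 16 for CIPK and from 18 to 21 for CPK, and the shares of all genes were 68.2 to 70.0% and 48.1 to 50.3%. The strongest peak of each single list was 2.21 to 2.54 at CIPK23 and 2.01 to 2.03 at CBL1, each at the shared site. At CIPK8 it was 1.80 in replicate 1 and 2.07 in replicate 2, in peaks that did not overlap. At CPK10 it was 1.90 in the promoter in replicate 1 and 1.81 in the gene body in replicate 2. The larger counts without a replicate follow from dropping the demand for a partner. No paired analysis was possible because 1 group of 2 libraries was compared with no other group. The part of depth in matching was not tested: 45.9% of the peaks in the weakest 20% of replicate 1 had a partner, and 86.6% in the strongest.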

Other observations

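CBL5 (AT4G01420), which is not one of the 7 genes and was picked after its values were seen, had the strongest peak in 1 list alone among the sensor genes. It lay over coding exons and introns on chromosome 4 from 579710 to 580455 in replicate 1, with 111 fragments and 2.46-fold enrichment, above 95.3% of the peaks of that list. The nearest peak of replicate 2 was 330 bp away, although 88.1% of the peaks of similar rank had a partner. Over the 70 CIPK, CBL and CPK genes, 13 (18.6%) had a peak in replicate 1 alone and 4 (5.71%) in replicate 2 alone, beside 10.5% and 8.73% of all nuclear protein-coding genes. Both CPK10 sites, in the promoter and in the gene body, had summits 509 bp apart between the libraries.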
